A study of Mus musculus with 4 samples.

Results

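The 8 genes Mbp, Mog, Mag, Mobp, Cnp, Mal, Opalin and Myrf were followed through the oligodendrocyte lineage of the mouse ventromedial prefrontal cortex (vmPFC). They are 8 of the 31053 genes in the single-cell count matrices. Lineage cells were taken from the 19472 filtered cells of the 3 unsorted libraries, outside the excitatory neurons that the authors listed, and had to carry at least 1 UMI (unique molecular identifier, 1 counted transcript) of the lineage gene Olig1. They were placed in 3 stages by other genes: precursors by 3 or more UMIs of Pdgfra and Cspg4, committed cells by 5 or more UMIs of Gpr17, Enpp6 and Bmp4, and mature cells by 5 or more UMIs of Ermn and Cldn11, with the committed gate taking priority. This gave 1219 precursors, 667 committed cells and 1728 mature cells, and 7 further cells that passed both the precursor and the mature gate were left out. None of the 8 genes was used to place a cell. The series was made to read out the transcriptome and the projection targets of the same vmPFC neuron. Male C57BL/6 mice had received barcoded rAAV2-retro viruses carrying EGFP in 5 targets of this cortex: AI, DMS, MD, BLA and LH. The age given, 8 weeks, is that at injection by the methods, and the cells were taken later. The unsorted libraries are titled as mouse 1, 2 and 3, 1 mouse gave each, every mouse carried all the viruses, and no library without virus was analysed here. A further library of EGFP-sorted cells was pooled from 3 mice and enters no test.

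Oligodendrocytes wrap axons in myelin, a stack of membrane sheets that speeds conduction. They arise throughout life from dividing precursors, which pass through a short premyelinating state marked by Gpr17 and Enpp6 before they lay down myelin. Mbp and Mobp are basic proteins of the compact myelin sheet, and Mbp zips the cytoplasmic faces of the membrane together. Mal is a proteolipid of raft-like membrane that takes part in the sorting of myelin proteins. Mag is an adhesion molecule of the membrane that faces the axon, Mog lies on the outermost surface of the sheath, and Opalin is a transmembrane glycoprotein restricted to oligodendrocytes of the central nervous system. Cnp is an enzyme of the cytoplasmic channels of myelin, where it holds the sheets apart. Myrf is a membrane-bound transcription factor that cuts itself, moves to the nucleus and switches on myelin genes, working with Sox10.

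In the GRCm38 annotation (GENCODE vM21), Mal spans chr2:127633226-127656695, Mag chr7:30899176-30914873, Mobp chr9:120149707-120181484, Cnp chr11:100574904-100591729, Mog chr17:37010743-37023398, Myrf chr19:10208272-10240748 and Opalin chr19:41061710-41077113. Of these 7 genes, Mobp and Cnp are on the plus strand and the other 5 on the minus strand. The Cnp locus overlaps Dnajc7 on the opposite strand, which is also counted in the matrices. Since Myrf is itself one of the genes, promoters (250 bases before to 50 bases after a RefSeq start site, GRCm38.p6) were searched on both strands for the core of the Myrf motif, CTGGCAC or CTGGTAC. Promoters were found for 6 of the 8 genes (3 for Mag), and 4 of these 6 genes held the motif in at least 1 promoter, as did 8.10% of the 27025 mouse genes with a promoter (7.10% of 32851 promoters). Mag, Cnp and Opalin held CTGGCAC and Mog held CTGGTAC. The windows around these matches are printed here on the strand of the gene, with the motif in capitals (its reverse complement in Mog and Opalin), from chr7:30914914-30914942 for Mag, chr11:100574847-100574875 for Cnp, chr17:37023464-37023492 for Mog and chr19:41077064-41077088 for Opalin.
Mag: gcaggcggcccCTGGCACccagggggcag
Cnp: accgctgcttcCTGGCACtcaggtttcca
Mog: agaaatgcccaGTACCAGgcagccactgc
Opalin: aaagacctgcaGTGCCAGtgagaga
The first base of the motif is at -68 from 1 of the 3 start sites of Mag, at -81 in Cnp and at -83 in Mog. In Opalin it is at 37, after the start site, and the window stops at the end of the promoter. The Mag match also lies within the promoter of another Mag start site, chr7:30914873-30915172. A match describes the letters only, since binding was not measured. A Sox motif, ACAAAG or ACAATG, was found for 4 of the 6 genes (Cnp, Mag, Mobp and Opalin) and for 31.7% of all genes (28.6% of promoters).

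The unsorted libraries held 7243 to 8040 cell barcodes and 83065993 to 87841541 UMIs, and 6129 to 7012 cells per library passed the limits on cells. The median cell held 4013 UMIs among precursors, 4936 among committed cells and 4794.5 among mature cells. Levels are given in CPM, the UMIs of a gene per 1000000 UMIs of the summed cells. Stage markers that placed no cell gave 7 of 8 precursor markers highest in precursors (Tnr was higher in committed cells, 1084 against 911 CPM), 8 of 8 committed markers highest in committed cells and 8 of 8 mature markers highest in mature cells. In every stage some cells also passed the marker gate of another cell class, 7.71% of precursors, 9.75% of committed cells and 7.81% of mature cells. The summed level of 5 endothelial markers ran from 237 to 763 CPM in the 3 precursor sums against 100 to 142 in the committed sums and 110 to 197 in the mature sums, and none of these markers was at 0. Pairs of libraries shared 11 to 30 cell barcodes, of which at most 1 per pair lay in a stage in both. No doublet caller was run.

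All 8 genes were lowest in precursors, intermediate in committed cells and highest in mature cells in each of the 3 libraries. These levels are CPM of the UMIs summed over the cells of a stage, in the order of libraries 1, 2 and 3. They count transcripts at the 3′ end, and no level is compared here between genes. The 8 genes together took 0.0244% ± 0.000744 of the UMIs of precursors, 0.582% ± 0.0511 of those of committed cells and 2.03% ± 0.0344 of those of mature cells (SD over the 3 libraries).

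Among the proteins of compact myelin, Mbp was at 55.7, 45.3 and 42.5 CPM in precursors, 1616, 1932 and 1548 in committed cells and 4563, 4658 and 4668 in mature cells. Mobp was at 3.81, 8.46 and 6.08 CPM in precursors, 499, 506 and 591 in committed cells and 1935, 1979 and 2012 in mature cells. Mal was at 14.3, 8.95 and 15.5 CPM in precursors, 300.1, 487 and 468 in committed cells and 4452, 4605 and 4341 in mature cells. No range overlapped that of another stage for any of the 3 genes. The surface proteins followed the same order. Mag was at 4.29, 3.98 and 4.42 CPM in precursors, 814, 849 and 768 in committed cells and 1709, 1778 and 1848 in mature cells. Mog was at 0.476, 0 and 0.552 CPM in precursors, 238, 225 and 320.0 in committed cells and 1223, 1348 and 1284 in mature cells. Opalin was at 1.43, 1.49 and 1.10 CPM in precursors, 164, 171 and 207 in committed cells and 1330, 1362 and 1313 in mature cells. The precursor values of Mog and Opalin rest on 2 and 8 UMIs in all 1219 cells. The remaining genes, the channel enzyme and the transcription factor, stood in precursors at the highest share of their mature level. Cnp was at 146, 153 and 138 CPM in precursors, 1626, 2084 and 1706 in committed cells and 4486, 4643 and 4639 in mature cells. Myrf was at 24.3, 25.4 and 27.6 CPM in precursors, 115, 120.0 and 95.1 in committed cells and 261, 272 and 252 in mature cells.

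**Figure D1:**
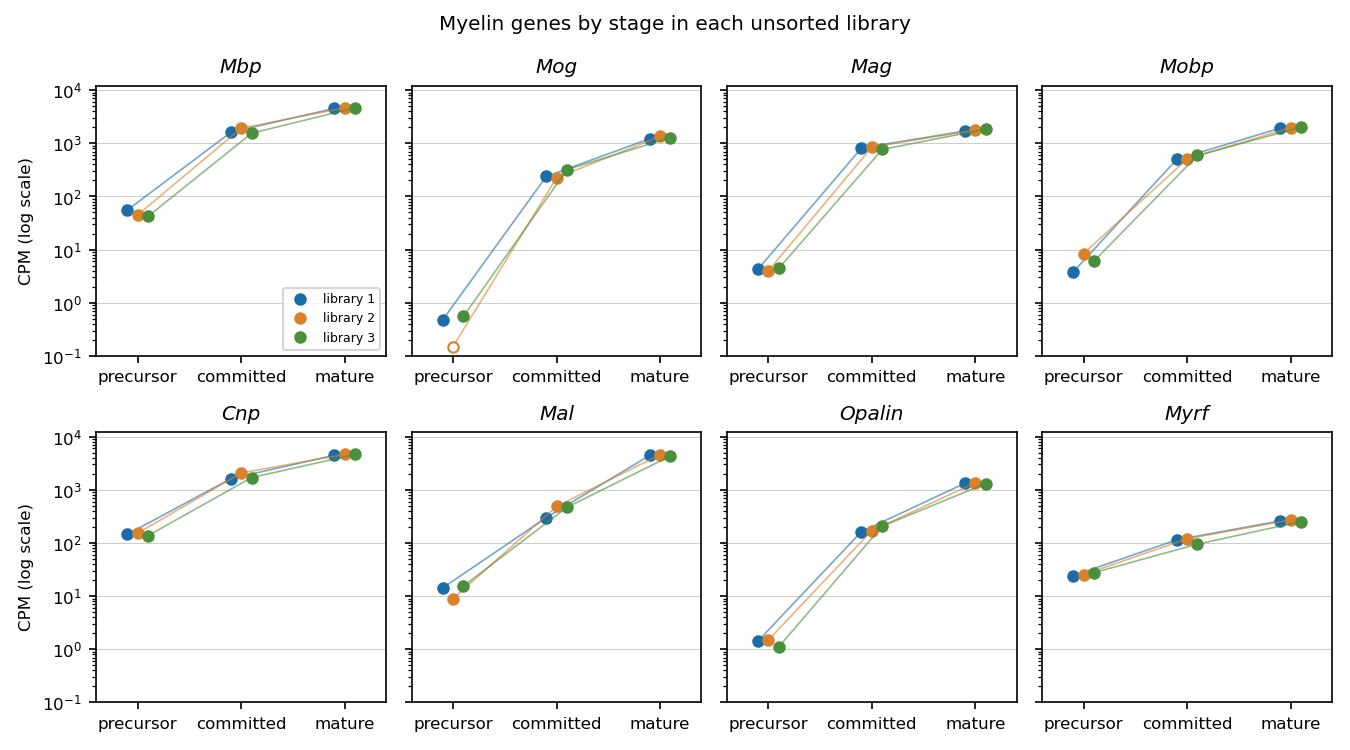
Level of each of the 8 myelin genes (CPM, log axis) in the summed cells of each stage, 1 point per unsorted library, with a line joining the stages of a library. Every gene climbed from precursor to committed to mature cells in all 3 libraries; the open circle marks Mog in the precursors of library 2, which is at 0 CPM and is drawn at the foot of the log axis.

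The first question was at which step each gene rose. Sums per library and stage were tested with edgeR (quasi-likelihood, library as a block), and calls needed a change of 0.5 or more in log2, either way, together with Benjamini-Hochberg adjustment to p below 0.05. Libraries are the replicates, so a p-value measures only the spread between the 3 libraries, and the groups are separate cells of the same libraries. From precursor to committed cells all 8 genes rose, where 6.49% of the 11924 genes tested were called higher, 3.08% lower and 9.57% in either direction. The log2 fold change was 2.19 ± 0.118 (SE) for Myrf, 3.72 ± 0.0810 for Cnp, 5.23 ± 0.104 for Mbp, 6.52 ± 0.129 for Mobp and 7.65 ± 0.128 for Mag. It was 5.10 ± 0.177 for Mal, and adjusted p ran from 6.56e-17 for Mag to 4.40e-10 for Myrf (edgeR). The fitted values of Opalin, 7.08, and Mog, 9.42, depend on the prior count, because the precursors hold so few of their UMIs. By counts, Opalin was 133-fold higher in committed cells (95% counting interval 67.4 to 310.0) and Mog 767-fold (212 to 6345). These intervals cover counting error only.

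From committed to mature cells all 8 genes rose again, where 18.9% of genes were called higher, 24% lower and 42.9% in either direction. The log2 fold change was 1.58 ± 0.0607 (SE) for Mag, 1.69 ± 0.0774 for Myrf, 1.80 ± 0.0665 for Cnp and 1.90 ± 0.0736 for Mbp. Mobp rose by 2.34 ± 0.0644 and Mog by 2.76 ± 0.0819. Opalin rose by 3.34 ± 0.0685 and Mal by 3.87 ± 0.104, with adjusted p of 1.98e-16 and 4.08e-15 (edgeR). From precursor to mature cells, where 23.2% of genes were called higher, 28.2% lower and 51.4% in either direction, the log2 fold change ran from 3.88 ± 0.0957 for Myrf and 5.51 ± 0.0832 for Cnp to 7.12 for Mbp, 8.86 for Mobp, 8.97 for Mal and 9.23 for Mag. By counts Opalin was 988-fold higher in mature cells than in precursors (501 to 2290) and Mog 3797-fold (1051 to 31356). The scaling of the libraries bears on the size of these steps: TMM factors raised every log2 fold change from committed to mature cells by 0.44 against plain totals, and from precursor to committed cells by 0.09. On plain totals the genes called from committed to mature cells were 1062 higher and 5328 lower, against 2249 and 2865, and the 8 genes were still called higher, from 1.13 for Mag to 3.43 for Mal. The order of the genes at this step also depended on the cells. Without 8 deep committed cells described below, committed Opalin was at 2.92% ± 1.60 of the mature level and Mal at 6.06% ± 0.877. With them, Opalin was at 13.5% ± 1.93 and Mal at 9.36% ± 2.27, so the order of these genes turned. With each cell thinned to 1000 UMIs the log2 fold change was 2.24 for Myrf, 2.68 for Cnp, 2.87 for Mbp and 2.99 for Mag, and with the gate limits doubled it was 0.81 for Mbp, 0.82 for Myrf, 0.86 for Cnp and 0.98 for Mag.

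The committed gate holds unlike cells. Of the 667 committed cells, 518 also passed the precursor gate, 84 also passed the mature gate, 8 passed both and 57 passed no other gate. The 92 cells that also passed the mature gate were 13.8% ± 0.567 (SD) of the committed cells of a library, and they held 100% of the Opalin UMIs of the stage, 99.4% ± 0.176 of Mobp, 98.6% ± 1.39 of Mal, 98.5% ± 0.523 of Mog and 98.0% ± 0.881 of Mag. They held 94.5% ± 1.15 of Mbp, 83.4% ± 1.63 of Cnp and 69.7% ± 1.89 of Myrf. The committed cells left after them therefore held a small share of the UMIs of 5 of the genes, and a larger share of those of Cnp and Myrf. These are shares of each gene's own total. The 57 cells in no other gate held 64 Mag UMIs and 57 Myrf UMIs.

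When each stage was limited to cells in 1 gate only, a comparison listed among the alternatives in advance, the 57 committed cells (15, 22 and 20 per library) split the 8 genes. Myrf was at 169, 174 and 108 CPM in them and Cnp at 1720, 2678 and 1979 CPM. Mbp was at 875, 1002 and 379 CPM. These 3 genes were above the precursor range in each library and rose from precursors by 2.58, 3.90 and 4.00 on the log2 scale, with adjusted p of 3.78e-06, 2.51e-10 and 4.00e-08 (edgeR). Mag was at 199, 234 and 69.6 CPM and rose by 5.32, adjusted p = 5.52e-07 (edgeR). Mog held 11 UMIs in these cells, 7 of them in library 1, and was also called, with an adjusted p of 0.000722 (edgeR) and a ratio to precursors of 85.8 by counts (18.7 to 796). Mobp, with 3 UMIs, Mal, with 1, and Opalin, with 0 UMIs in 57 cells (which allows a share of up to 5.26% of cells), were not called, at log2 fold changes of 0.40, -2.21 and -4.12 and adjusted p of 0.889, 0.311 and 0.638 (edgeR). So few UMIs leave wide limits: the ratio to precursors was 1.30 for Mobp (0.256 to 4.11) and 0.205 for Mal (0.00513 to 1.18). From these 57 cells to mature cells all 8 genes rose. The share of all genes called in this 1-gate fit is not given here, so the calls of the 8 genes are not set against it. The step was 1.28 on the log2 scale for Myrf and 1.59 for Cnp, and 3.13 for Mbp, 3.89 for Mag and 5.94 for Mog. By counts Mobp was 250-fold higher in mature cells (85.4 to 1211), Mal 1696-fold (304 to 67007), and Opalin at least 169-fold against a floor of 3 UMIs.

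**Figure D2:**
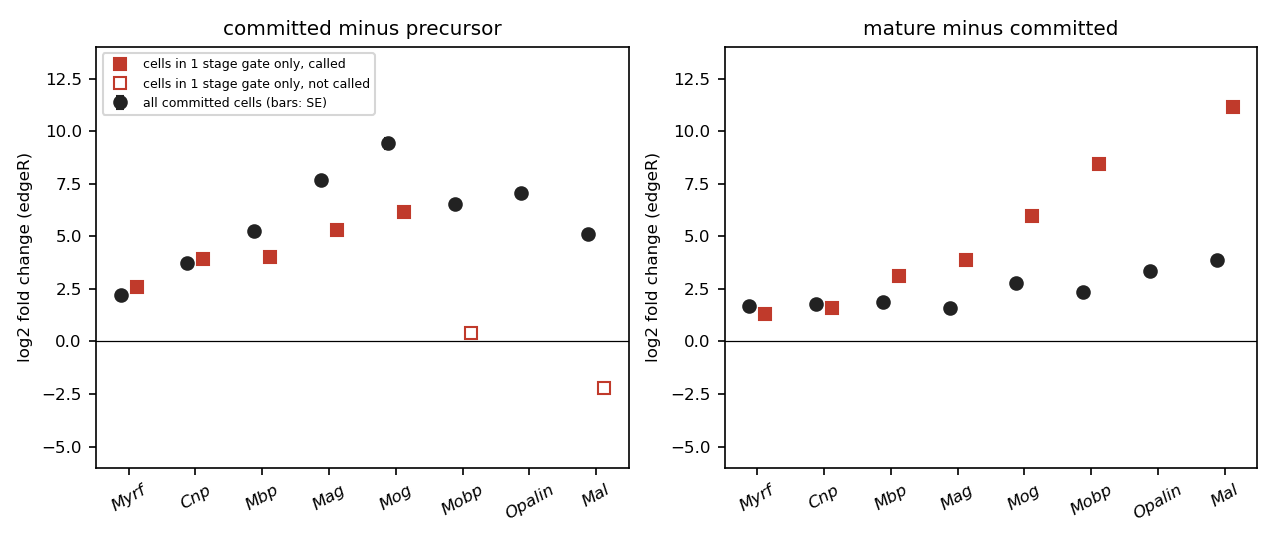
Log2 fold change (edgeR) of each gene from precursor to committed cells (left) and from committed to mature cells (right), with all 667 committed cells (circles, bars for the SE, mostly smaller than the symbol) and with the 57 committed cells in no other gate (squares, open where not called). Myrf, Cnp and Mbp rose at the first step in both settings, while Mobp at 0.40 and Mal at -2.21 were not called among the 57 cells; Opalin, at 0 UMIs in them, has no square.

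Expressed as percent of the level in mature cells of the same library, the genes reached their mature level at different points along the gates. The groups that follow were chosen after values had been seen, so they are described with no test, as means over the 3 libraries. In precursors, Myrf was at 9.87% ± 0.933 (SD), Cnp at 3.18% ± 0.174 and Mbp at 1.03% ± 0.164, and the other 5 genes were under 0.5%. The 518 committed cells that also passed the precursor gate were close to precursors, with Myrf at 11.9% ± 1.58, Cnp at 4.07% ± 0.360, Mbp at 1.08% ± 0.204 and Mag at 0.267% ± 0.101. Opalin was at 0 UMIs in these 518 cells, which allows a share of up to 0.579% of cells. In the 57 committed cells in no other gate, Myrf was at 57.2% ± 12.4, Cnp at 46.2% ± 10.2, Mbp at 16.3% ± 7.16 and Mag at 9.52% ± 5.04. Mog was at 2.66% ± 2.70 and Mobp, Mal and Opalin were under 1%. Myrf, the regulator, and Cnp thus stood at about 50% of the mature level in cells in which the surface protein Opalin was at 0 UMIs.

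The 84 cells in the committed and the mature gate separated further by the genes that placed them. In 41 cells (15, 15 and 11 per library) both Gpr17 and Enpp6 were detected. Their Mbp was at 7750, 9689 and 8197 CPM, which is 184% ± 20.6 of the mature level, beside Mag at 149% ± 37.3, Cnp at 145% ± 24.3 and Myrf at 131% ± 17.6. In the same cells Mobp was at 48.6% ± 9.10 and Mog at 14.6% ± 2.14, Opalin at 5.71% ± 5.36 and Mal at 2.21% ± 1.81. Mal was at 125, 168 and 7.69 CPM there, and 11.9% ± 7.10 of these cells carried a Mal UMI, against 99.9% ± 0.187 of mature cells. In 35 cells (13, 8 and 14) Gpr17 was at 0. All of these carried Mal, at 75.9% ± 11.5 of the mature level, and Mog and Mobp were at 118% ± 17.2 and 132% ± 2.84. Opalin was the lowest of the 8 in them, at 169, 745 and 208 CPM or 27.7% ± 23.4. Read from the 57 to the 41 to the 35 cells, the mean of Myrf and of Cnp was the first to pass 40%, then that of Mbp, Mag and Mobp, then that of Mog and Mal, while the mean of Opalin passed it in none of the 3 groups. Single libraries departed from this: Cnp was at 38.3% in the 57 cells of library 1, and Opalin at 54.7% in the 35 cells of library 2. The order also depends on the 40% mark, which was not laid down in advance. A higher mark would move Cnp, at 46.2% in the 57 cells, and Mobp, at 48.6% in the 41, to a later group. A mark below 16.3% would place Mbp with Myrf and Cnp. The groups were put in this order by hand, and time was not measured. In the last 8 cells (2, 3 and 3) Enpp6 was at 0. They did not follow the order, with Mag at 436% ± 104, Opalin at 249% ± 57.5 and Mal at 80.0% ± 25.5. Depth moved with these groups: the median was 10778 UMIs in the 41 cells, 6973 in the 35 and 23688.5 in the 8, against 4794.5 in mature cells. The 8 cells weighed on the level of the whole stage, as they held 1538 of the 3804 Mag UMIs of the 667 committed cells and 662 of the 844 Opalin UMIs. They also held 617 of the 1214 Mog UMIs and 1097 of the 2487 Mobp UMIs. Without them, committed Mag was at 28.2% ± 8.22 of the mature level in place of 45.7% ± 3.57, and Opalin at 2.92% ± 1.60 in place of 13.5% ± 1.93. Mog was at 10.3% ± 0.581 in place of 20.3% ± 4.20 and Mobp at 15.6% ± 1.65 in place of 26.9% ± 2.13. Mal was at 6.06% ± 0.877 in place of 9.36% ± 2.27. Whether a barcode of these groups holds more than 1 cell was not tested.

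**Figure D3:**
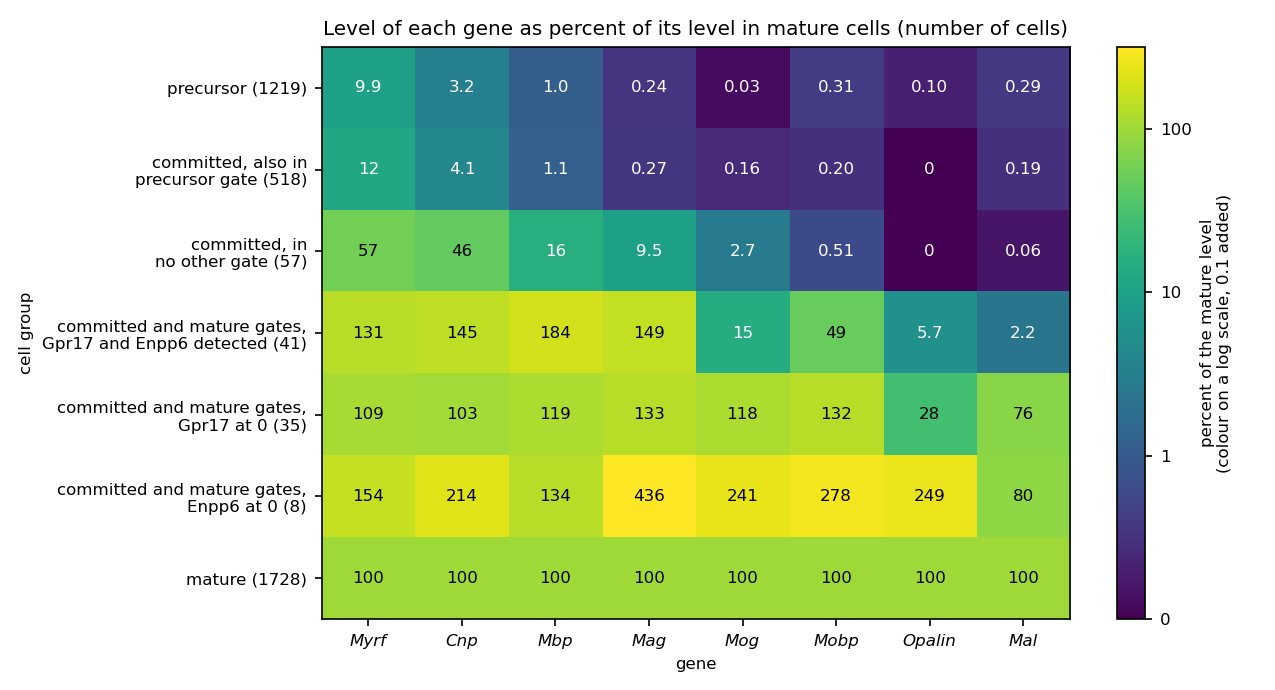
Level of each gene as percent of its level in mature cells of the same library (mean of 3 libraries; colour on a log scale), with the cell groups in rows and the number of cells in parentheses. Read downwards, the means of Myrf and Cnp pass 40% in the 57 committed cells in no other gate, Mbp and Mag pass 100% in the 41 cells that also pass the mature gate and hold Gpr17 and Enpp6, and Mal and Opalin are still at 2.2% and 5.7% there. The 40% mark was not laid down in advance.

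A split of the committed cells by their own gate genes was laid down with the other tests: 57 Enpp6-led cells, with more Enpp6 than Gpr17 and Bmp4 UMIs, against 610 Gpr17-led cells. All Enpp6-led cells also passed the mature gate, while only 27 Gpr17-led cells passed it without the precursor gate. The split therefore largely sets cells in the mature gate against cells outside it. In it 15.3% of the 9222 genes tested were called higher in Enpp6-led cells, 21.4% lower and 36.7% in either direction, and 7 of the 8 genes were higher. Mbp was at 7668, 9148 and 7241 CPM in Enpp6-led cells and 677, 837 and 853 in Gpr17-led cells, a log2 difference of 3.62 ± 0.122 (SE), adjusted p = 7.13e-31 (edgeR). Mal followed with 3.33 ± 0.166, from 111, 306 and 263 CPM to 1520, 1679 and 2145. Cnp, Mog, Mobp, Myrf and Mag differed by 2.53, 2.45, 2.38, 2.27 and 2.22. Set against those 27 Gpr17-led cells alone, with no test, Enpp6-led cells had lower means for all genes but Mbp and Mal. The 27 include the 8 cells with Enpp6 at 0. Mag was at 303% ± 62.3 of the mature level in the 27 against 130% ± 34.5 in Enpp6-led cells, and Cnp at 172% ± 17.0 against 128% ± 28.3. Mbp was at 130% ± 14.8 against 173% ± 21.1, and Mal at 39.0% ± 15.4 against 40.0% ± 8.23. Opalin was not called. It was at 93.7, 312 and 134 CPM in Enpp6-led cells and 175, 149 and 216 in Gpr17-led cells, the ranges overlapped, and the log2 difference was 0.26 ± 0.245, adjusted p = 0.44 (edgeR). Without library 2 this difference was -0.54, adjusted p = 0.117, without library 1 it was 0.60, and with each cell thinned to 1000 UMIs it was 1.86, adjusted p = 0.00847 (edgeR). The Gpr17-led value rests on few deep cells, since 662 of the 732 Opalin UMIs of the 610 Gpr17-led cells lay in the 8 cells with Enpp6 at 0. Without these 8, Opalin was at 22.8, 24.3 and 6.32 CPM in Gpr17-led cells, below each Enpp6-led value, which is given with no test as the cells were picked after values had been seen. By shares, 42.0% ± 17.8 of Enpp6-led cells and 3.06% ± 0.796 of Gpr17-led cells carried Opalin, against 1.05% of excitatory neurons at a median of 22251 UMIs. Myrf, the transcription factor, kept its direction when thinned but was not called, at 1.11 with an adjusted p of 0.126. Enpp6-led cells were deeper, with a median of 8582 UMIs against 4767.5, and the part of depth in the Opalin values was not tested beyond this thinning.

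Within the mature stage, Mbp had at least 1 UMI in all 1728 mature cells, Cnp and Mal were at 0 in 2 cells, Mobp in 5, Mag in 13 and Mog in 19. Opalin was at 0 in 85 and Myrf in 400. Per 1000 UMIs of a cell, the 10th percentile, median and 90th percentile were 3.21, 5.17 and 7.33 for Mbp, and 2.39, 4.46 and 7.21 for Mal. For Opalin they were 0.272, 1.43 and 2.62. Mature cells were then set apart by their Enpp6 UMIs (at most 4 are possible, as 5 would place a cell in the committed gate), a grouping chosen after values had been seen. Opalin was lower in each library in mature cells that still held Enpp6. It stood at 65.4%, 53.4% and 59.5% of the level of Enpp6-negative mature cells in the 303 cells with 1 to 2 Enpp6 UMIs, and at 35.0%, 42.1% and 53.0% in the 77 cells with 3 to 4. Mal was lower as well, at 81.7% ± 5.08 and 76.5% ± 12.2 (SD). Mobp went the other way in the cells with 3 to 4 UMIs, at 141% ± 7.37, with Mbp at 124% ± 6.24 and Mag at 123% ± 4.39, while Cnp was at 104% ± 8.03. The cells with more Enpp6 were deeper, with medians of 4636.5, 5219 and 5862 UMIs. When mature cells were divided at their median of 4794.5 UMIs, Opalin was again lower with more Enpp6, at 1726, 1263 and 876 CPM over the 3 Enpp6 groups of the shallower cells (754, 99 and 11 cells) and at 1347, 788 and 630.1 CPM in the deeper cells (594, 204 and 66 cells), with libraries pooled. Between 0 and 3 to 4 Enpp6 UMIs, the differences of Mobp, Mag and Mal were smaller among the shallower cells. Only 11 shallower cells held 3 to 4. At 1 to 2 UMIs the difference of Mobp was larger among the shallower cells. Over the 3 Enpp6 groups of the shallower cells, Mobp was at 2007, 2436 and 2095 CPM. Mag was at 1903, 1892 and 1860 there, and Mal at 4704, 4727 and 3911. Over those of the deeper cells, Mobp was at 1815, 2066 and 2716 CPM. Mag was at 1658, 1741 and 2175 there, and Mal at 4678, 3593 and 3522.

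**Figure D4:**
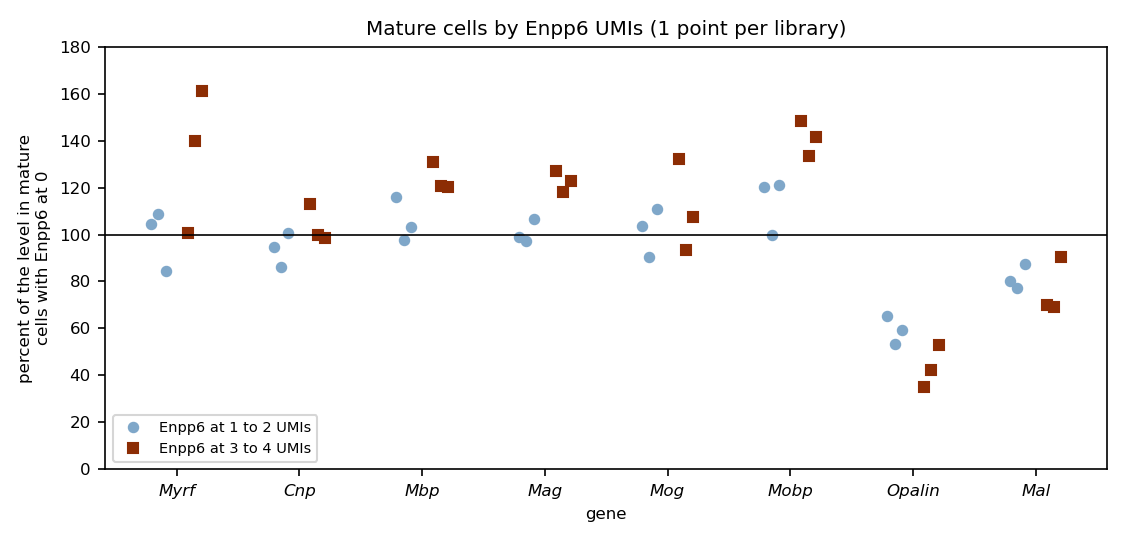
Level of each gene in mature cells with 1 to 2 Enpp6 UMIs (circles, 303 cells) and 3 to 4 (squares, 77 cells), as percent of the level in mature cells of the same library with Enpp6 at 0, 1 point per library. All Opalin points lie between 35.0% and 65.4%, and all Mobp points of the cells with 3 to 4 UMIs lie between 134% and 148%.

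The low levels in precursors were read against free RNA, the transcripts that droplets pick up from broken cells. The yardstick was the mean UMIs per excitatory neuron of the same library, a cell that should make no myelin. Cnp was at 0.709 ± 0.0363 UMIs per precursor (SD) against 0.195 ± 0.0138 per neuron, although the median neuron held 22251 UMIs and the median precursor 4013. Myrf was at 0.126 ± 0.0136 against 0.0249 ± 0.00175. Both genes were therefore above the free RNA level in precursors, and 46.8% ± 1.5 of precursors carried a Cnp UMI and 11.6% ± 0.925 a Myrf UMI, against 16.5% ± 0.487 and 2.39% ± 0.133 of neurons. Mbp was at 0.232 ± 0.0238 UMIs per precursor against 0.967 ± 0.0272 per neuron and Mobp at 0.0300 ± 0.0118 against 0.199 ± 0.0133. Mog and Opalin were lower per precursor than per neuron too, at 0.00167 and 0.00652 against 0.0104 and 0.0105. These 4 precursor levels did not exceed the neuron level. Mag was at 0.0206 ± 0.00158 per precursor against 0.0173 ± 0.00419 per neuron. Classes nearer to precursors in depth gave another reading for Mbp, which was at 0.181 ± 0.00505 UMIs per cell in microglia, 0.196 ± 0.0673 in mural cells, 0.117 ± 0.0300 in endothelial cells and 0.0976 ± 0.0458 in astrocytes. The precursor value of Mbp lay above the means of these 4 classes, and Mag was at 0.00391 ± 0.00341 per endothelial cell, 0.00340 ± 0.00589 per astrocyte, 0.00687 per mural cell and 0.111 ± 0.0145 per microglial cell. Opalin, with 8 UMIs in all precursors, was at 0.00368 ± 0.00638 UMIs per endothelial cell and 0.00340 per astrocyte. It was at 0.00280 per microglial cell and 0.00194 per mural cell, so its precursor mean lay above those of the 4 classes. For Mbp, Mag and Opalin, whether precursors make transcripts of their own was not tested. Subtracting the neuron level per cell left 97.1 to 113 CPM of Cnp and 18.7 to 22.5 CPM of Myrf in precursors, 0, 1.43 and 0.656 CPM of Mag, and 0 of Mbp, Mobp, Mog and Opalin in each library. In committed cells the subtraction left Mag at 41.5% to 47.7% of the mature level and Mal at 6.65% to 10.7%. Neurons are not a clean blank for every gene, as the neuron subtypes below differ in Mbp and Mobp.

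Mal in precursors came from few cells. Of its 76 UMIs in 1219 precursors, 65 lay in 22 cells that also passed the endothelial marker gate, and 19 precursors in the mural gate held 51. Without cells of another class the precursor level of Mal was 3.83, 1.94 and 0.743 CPM in place of 14.3, 8.95 and 15.5. Endothelial cells themselves carried Mal, as described next. Without these cells Cnp was at 176 ± 13.7 and Myrf at 32.2 ± 3.02 CPM in precursors.

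Outside the lineage, Mal was found in endothelial cells, Mag in microglia and Cnp in astrocytes above the level of the other classes. These values are descriptions over 7 excitatory subtypes, named by the authors, and 5 classes gated by markers. Mal was at 386, 403 and 433 CPM in 1009 endothelial cells, and 57.1% ± 2.76 of them carried it at a median of 2506 UMIs, against 2.80% ± 0.706 of excitatory neurons at 22251. The next class was astrocytes at 7.80 ± 4.88 CPM. Mag was at 31.0, 24.5 and 24.4 CPM in 2904 microglia, against 2.66 ± 4.61 in mural cells and 2.26 ± 0.572 in inhibitory neurons, a pair whose spreads overlapped. Cnp was at 127, 90.7 and 100.3 CPM in 321 astrocytes and 50.6 ± 3.41 in microglia, then 16.6 ± 3.02 in endothelial cells. The astrocyte level of Cnp did not reach the precursor level of 138 to 153 CPM. Myrf, the regulator, was lower in all 12 groups than in precursors, with 4.07 ± 0.811 CPM in L5-Htr2c neurons and 1.25 ± 0.273 in L6-Syt6 neurons as the leading values.

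Mbp and Mobp differed between neuron subtypes and did so in different subtypes. Mbp was at 99.2 ± 9.39 CPM in L5-Bcl6 neurons and 89.6 ± 1.86 in L5-S100b neurons, with overlapping ranges, then 47.5 ± 1.71 in L6-Npy and 46.1 ± 7.23 in L5-Htr2c neurons, which overlapped. The lowest values were 28.3 ± 2.95 in L2/3-Calb1 and 26.0 ± 1.03 in L6-Syt6 neurons, which overlapped. Mobp was at 20.8 ± 2.67 CPM in L6-Npy and 20.3 ± 0.752 in L5-S100b neurons, which overlapped, then 14.5 ± 0.956 in L2/3-Rorb neurons, and the lowest values were 3.68 ± 0.343 in L6-Syt6, 2.87 ± 1.55 in L5-Htr2c and 2.54 ± 1.18 in L5-Bcl6 neurons, which overlapped. L5-Bcl6 neurons, among the highest for Mbp, were thus among the lowest for Mobp. The sorted library, made from other mice, had its highest Mbp in the same subtypes, at 123 CPM in 67 L5-Bcl6 and 102 in 313 L5-S100b neurons against 18.9 in 773 L6-Syt6 neurons. There Mobp was at 29.6 CPM in L6-Npy and 18.1 in L5-S100b neurons, and at 0 UMIs in the 67 L5-Bcl6 neurons. The Mbp locus also gives Golli transcripts, which neurons make from an upstream start, and the counts per gene do not separate them from the myelin transcripts.

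**Figure D5:**
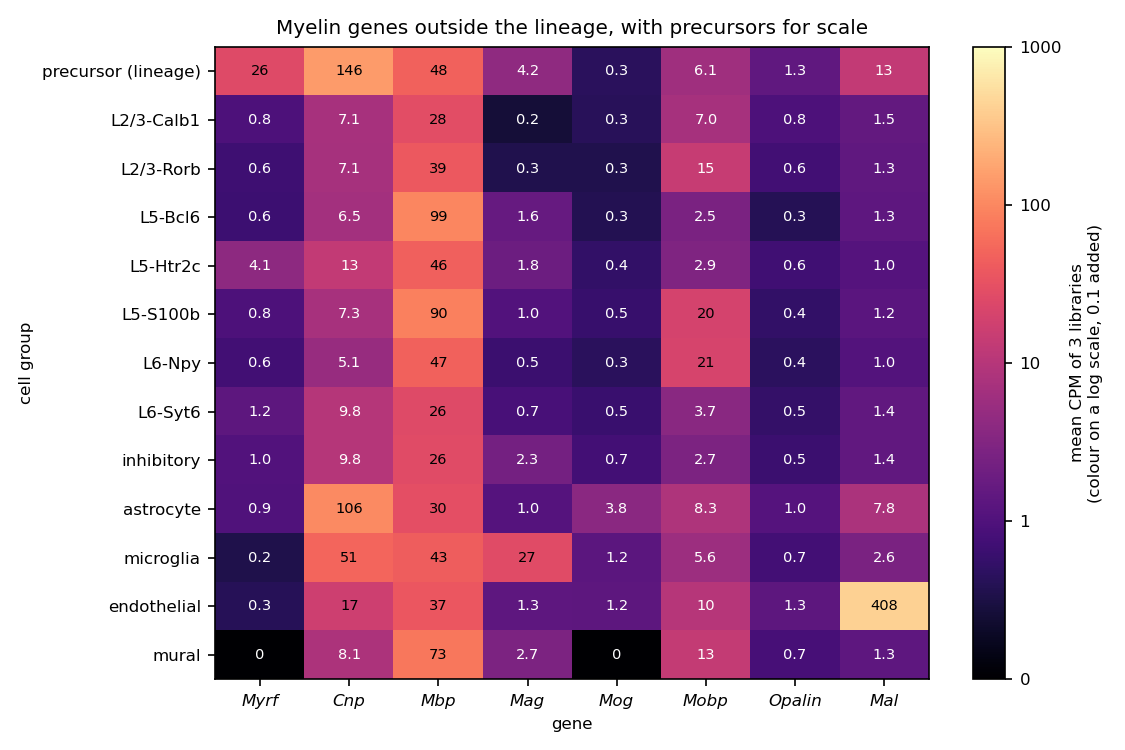
Mean level of each gene over the 3 unsorted libraries (CPM, colour on a log scale) in 7 excitatory subtypes and 5 other classes, with precursors in the top row. The cells that stand out are Mal in endothelial cells (408 CPM), Mbp in L5-Bcl6 and L5-S100b neurons, Cnp in astrocytes and Mag in microglia.

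The rest of the myelin programme was read from lists of genes drawn up with earlier results of these data known. Among all genes tested, 6.49% rose and 3.08% fell at the first step, 18.9% rose and 24% fell at the second, and 15.3% were higher and 21.4% lower in Enpp6-led cells. Of 32 other myelin and oligodendrocyte proteins, 29 rose and 0 fell from precursor to committed cells, with a median log2 fold change of 3.11 against -0.00323 over all genes. From committed to mature cells 29 rose and 2 fell (median 2.52 against -0.0278). Aspa, which splits N-acetylaspartate, rose by 7.02 at the first step, and Ptgds, prostaglandin D synthase, and Car2, a carbonic anhydrase, rose by 4.59 and 3.87 at the second. The 2 that fell at the second step were Nfasc, whose glial form anchors the paranode (-0.61), and the protease Klk6 (-0.53), which was at 0 CPM in precursors, 37.2 ± 4.04 in committed and 19.0 ± 3.91 in mature cells. In Enpp6-led cells, all of which also passed the mature gate, 30 of the 32 were higher than in Gpr17-led cells. Klk6 was at 299 ± 64.4 CPM in Enpp6-led cells against 0.439 ± 0.760.

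Of 20 genes listed for myelin glycolipids and fatty acids, 12 rose and 0 fell at each step (6.49% and 18.9% of all genes rose), with medians of 0.68 and 0.92. Elovl7, which lengthens fatty acids, rose by 2.75 and Fa2h, which hydroxylates those of myelin lipids, by 2.13 from precursor to committed cells. Pex5l, a partner of HCN ion channels that the list also held, and Scd1, a fatty acid desaturase, rose by 3.13 and 2.85 from committed to mature cells. Of 23 genes for cholesterol synthesis, 9 rose and 0 fell at the first step (median 0.45), among them Hmgcs1 (0.81), which makes HMG-CoA. At the second step 11 rose and 2 fell, Ebp (1.35) and Insig1 (1.33) leading the genes that rose and Mvd (-0.81) being among those that fell. The direction depended on the scaling, since on plain totals 3 rose and 7 fell and the median went from 0.27 to -0.18. In Enpp6-led cells, all also in the mature gate, 19 of 22 were higher than in Gpr17-led cells and 0 lower (median 1.38). Mvd was at 2.06, and on plain totals 18 were higher.

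Of 28 lineage transcription factors and regulators tested, 10 rose and 1 fell from precursor to committed cells, and 7 rose and 16 fell from committed to mature cells. All genes gave 6.49% and 3.08% at the first step and 18.9% and 24% at the second, so that the share of regulators that rose at the second step, 25%, was near that of all genes. Nkx6-2 rose at both steps, by 6.60 and 3.03, from 0.834 ± 0.244 to 82.4 ± 9.57 to 495 ± 6.73 CPM. St18 rose by 7.07 at the first, and Tmem98, which binds Myrf and blocks its cleavage, rose by 2.52 at the second, after 0.66 at the first with an adjusted p of 0.15 (edgeR). Tcf7l2, a Wnt effector of the premyelinating state, rose by 1.66 and then fell by 1.94, and was at 722 ± 180.1 CPM in Enpp6-led cells against 93.4 ± 9.50 in Gpr17-led cells. Zfp488 rose by 0.65 and fell by 1.42, and Nkx2-2 was not called (0.42) and then fell by 1.07. Olig2 was not called at the first step (-0.27) and fell by 1.47 at the second, from 945 ± 45.7 to 250.3 ± 15.5 CPM. Sox10, the partner of Myrf, was called at neither step, with levels of 281 ± 30.8, 287 ± 25.7 and 234 ± 23.8 CPM in the 3 stages. Sox6 and Hes5, factors that hold precursors back, fell by 6.34 and 5.98 at the second. Hes5 and Olig2 were already lower in Enpp6-led committed cells, at 2.04 ± 3.53 and 264 ± 34.9 CPM. They were at 258 ± 16.0 and 1042 ± 59.5 CPM in Gpr17-led cells. On plain totals 4 in place of 1 of the 28 regulators fell at the first step.

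The lists that follow the stages themselves moved at different steps. Of 20 precursor genes, 5 fell from precursor to committed cells, led by Fabp7 (-0.65) and Cspg5 (-0.64), and 20 fell from committed to mature cells, led by C1ql1 (-10.40) and Susd5 (-9.18). On plain totals 10 fell at the first step. Most committed cells, 518 of 667, also passed the precursor gate. Within the committed stage, 19 of the 20 were already lower in Enpp6-led than in Gpr17-led cells, where 21.4% of all genes were lower. Cspg5 was at 13.4 ± 14.9 CPM in Enpp6-led cells against 2757 ± 155 in Gpr17-led cells. Of 18 committed and newly formed genes, 16 rose at the first step, with 9630013A20Rik (6.94) and Kif19a (3.57) in front, and 16 fell at the second, where 24% of all genes fell, with Neu4 (-9.20) and 9630013A20Rik (-6.09) in front. Mbp mRNA is carried along microtubules and translated at the growing sheath, and 12 genes listed for these processes were followed. Of these, 4 rose and 0 fell at the first step, where 6.49% of all genes rose, with Tppp, a tubulin-binding protein, at 1.74 and the RNA-binding Qk at 0.78. At the second step, where 18.9% of all genes rose, 4 rose, with Tppp at 1.78 and the motor Kif1b at 1.67, and 1 fell: Sncaip, from 10.5 ± 4.16 to 0 CPM. The median of this list was 0.07 and 0.22 and turned to -0.02 and -0.22 on plain totals.

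The genes whose level was most like that of the 8 were sought over 45 sums, 1 for each library and each of the 3 stages, 7 subtypes and 5 classes, among 15422 genes. The sums of a library share its preparation, and the values are descriptions. Nkx6-2 was closest to the mean profile of the 8 genes (Pearson r = 0.987 on log2(CPM + 1)), and the other close genes were Nipal4 (0.980), Tmem125 (0.976), Cldn14 (0.968), Ly6g6f (0.967), 4930452G13Rik (0.964), Gm12326 (0.960) and St18 (0.955). For single genes, Nipal4 was closest to Mbp (0.961), Mog (0.977), Mag (0.930), Mobp (0.932) and Opalin (0.979). Cnp was closest to Hhip (0.945), Mal to Car14 (0.952) and Tmem98 (0.932), and Myrf to 1700047M11Rik (0.969) and Gjb1 (0.967). Among the 8 genes themselves, Mog and Opalin were the most alike (0.968) and Mal and Myrf the least (0.738).

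The limits of the gates were checked on the cells beside them. The 40 precursors with exactly 3 UMIs of their gate genes held 0.4 Cnp and 0.15 Mbp UMIs per cell, and the 33 Olig1-positive cells with 2 held 0.303 and 0.0909. The 198 committed cells with exactly 5 UMIs held 5.91 Cnp, 5.90 Mbp and 3.40 Mal UMIs per cell, and only 3 cells in no stage had 4. The 14 mature cells with exactly 5 UMIs held 12.7 Mbp, 8.93 Mal and 3.71 Opalin UMIs per cell, and the 4 cells with 4 held 13.8, 10.8 and 3.75.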

How the data were processed

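Single cells of the vmPFC were measured with Chromium 3′ v3 libraries. The deposited matrices hold raw UMI counts per gene and cell, which the authors made with Cell Ranger 3.0.2 (mm10, per the labels). No normalization had been applied. The authors' list of excitatory neurons (Seurat 3.1.4, per the labels) was used for its cell names and subtype labels only. Groups came from the sample titles. The limits on cells were 500 to 8000 detected genes, 1000 to 60000 UMIs, and a mitochondrial share below 20%. Free RNA was not removed before the tests.

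Counts were summed per library and stage and fitted in edgeR 4.0.16 under R 4.3.3 (TMM, filterByExpr, quasi-likelihood F test) with library as a block, since each library gives all stages. The 3 stages shared 1 fit, genes used to place cells were not tested, and the Enpp6 split needed at least 10 cells per library in both groups. Across stages, the deviations of sums of the same library correlated at -0.0381 to 0.0708 over 9615 genes, so the libraries are paired by the mouse in their titles and not by these values. CPM is relative to the UMIs of the summed cells, and ± gives the SD over the 3 libraries unless stated. Counting intervals are exact, at 95%, and a count of 0 was given a limit of 3 counts. Scripts were tested on simulated counts. The alternatives were DESeq2 1.42.0, RLE factors, no filter on low counts, no block, each library left out, other cell filters, other gate limits and cells thinned to 1000 UMIs; scaling on plain totals was added after the data had been seen.

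The 8 genes are named in every comparison; from each list the called genes with the 2 highest and 2 lowest fold changes are named, with Sox10, Olig2, Nkx2-2, Tcf7l2, Zfp488, Tmem98 and Nkx6-2; some genes that this rule names are not reported here. The genes, gates and lists were chosen with earlier results of these data known. The lists named 1 gene each among the regulators and the committed genes that was not found in the matrices, and lineage counts are over genes that passed the filter.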

Additional observations from a re-analysis of the deposited data

Results flagged for a closer look

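The sorted library entered no comparison, and its cells had been sorted for EGFP. Of 1791 cells, 8 passed the mature gate, 7 the committed gate and 0 the precursor gate. The 8 mature cells carried all 8 genes, and this signal in cells outside the comparisons lay above the neurons of the same library, with pooled levels of 5684 CPM for Mbp, 1809 for Mog, 2504 for Mag, 3294 for Mobp, 5646 for Cnp, 9273 for Mal, 1428 for Opalin and 419 for Myrf. The 1603 excitatory neurons of the same library were at 47.9 CPM for Mbp, 10.0 for Mobp, 7.30 for Cnp and under 1 CPM for each of the other 5 genes. Mal in the mature cells of the unsorted libraries was at 4341 to 4605 CPM. The 8 cells had a median of 12156.5 UMIs, and this is 1 library, so the differences have no replicate check. Whether these barcodes hold an oligodendrocyte beside a neuron was not tested.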

How the results depend on the processing

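Of 312 fold changes of the 8 genes in the stage comparisons under alternatives, 309 kept their direction and their side of the threshold, and 392 of 400 did so with the Enpp6 split included. The exceptions in the stages were all from precursor to committed cells with 1 gate only: Mobp at 0.40 was no longer called, and the fitted values of Mal (-2.21) and Opalin (-4.12) were below 0 and not called. These rest on 1 and 0 UMIs in the 57 committed cells left, and the counting intervals of the ratio to precursors, 0.00513 to 1.18 and 0 to 9.14, include no difference. Opalin in the Enpp6 split reversed to -0.00835 on plain totals and to -0.0696 without cells of another class, and ranged from -0.54 (without library 2) to 0.60 (without library 1) when 1 library was left out. It was called at 1.86 with cells thinned, where Myrf, at 1.11, was not.

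The counts of genes called were 1141, 5114 and 6124 for committed against precursor, mature against committed and mature against precursor cells, and 3382 for the Enpp6 split. Without the replicate block that pairs the stages of a library they were 1149, 5123, 6136 and 3614, and no call of the 8 genes changed. Leaving out 1 library gave 912 to 991, 4733 to 4886, 5792 to 5897 and 2605 to 2852. DESeq2 gave 715 for the first step and 2109 for the Enpp6 split. Doubled gate limits gave 2464 for the first step, and 1 gate only gave 2601 for the second. Thinning to 1000 UMIs gave 324 of 7975 genes tested for the first step and 680 of 2331 for the split, where fewer genes could be tested; the cause of the other shifts was not tested. The 1-gate setting could not be fitted for the split, as 0 Enpp6-led cells remained, and doubled limits were not run for it. On plain totals the calls were 647 higher and 579 lower (774 and 367 with TMM) at the first step, 1296 and 6139 (2766 and 3358) from precursor to mature cells, and 1026 and 2669 (1408 and 1974) for the split.

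Of 72 committed levels as percent of the mature level under alternatives, 25 shifted by more than the SD of the libraries. With cells thinned, Mag was at 17.6%, Cnp at 22.0% and Opalin at 3.94%, and with doubled limits Cnp was at 71.6% and Mal at 3.34%. Shares of cells with a UMI can only stay or go down when cells are thinned, and 23 of 24 moved. Mog in precursors rests on 2 UMIs, and the smallest committed group has 8 cells.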

Other observations

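Mag in microglia was spread thinly over many cells. Of 2904 microglia, 308 carried Mag, 292 of them with exactly 1 UMI, and 1 cell with Mag also carried Mog and 4 also carried Mobp. Over all 2904 microglia, only 15 carried Mog and 62 Mobp. Mbp was present in 10.7% of the microglia with Mag and in 11.6% of those without. The median depth was 4592.5 UMIs with Mag and 4115 without. Per cell, Mag was at 0.111 ± 0.0145 UMIs in microglia (SD, 3 libraries) against 0.0173 ± 0.00419 in excitatory neurons, which are deeper. Whether the Mag UMIs come from transcripts of microglia or from material they had taken up was not tested.

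The 7 cells that passed both the precursor and the mature gate took 1.53% ± 0.229 of their UMIs from the 8 genes, between committed cells at 0.582% and mature cells at 2.03%, at a median of 8715 UMIs. Of endothelial cells, 0.0475% ± 0.00301 of the UMIs came from the 8 genes, above the 0.0244% of precursors. Most of this was Mal, at 408 CPM in endothelial cells and 12.9 in precursors, so the sum does not show the other genes to be higher.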
